A study of Drosophila melanogaster with 9 samples.

Results

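The genes *chrb*, *scyl* and *L* encode inhibitors of the growth-promoting kinase complex TORC1, and they are the 3 genes described here, of 13937 in the deposited count table. They were found in it by their gene names, and they had been chosen by role and by their measured change against vehicle in these same libraries. Their values against vehicle are therefore given as a description, with errors and without a test. RNA-Seq was done on mRNA of S2 cells, a *Drosophila melanogaster* cell line of embryonic origin with features of hemocytes (insect blood cells), kept without serum for 16 h. The cells then received for 1 h either 100 nM *Drosophila* insulin-like peptide 2 (DILP2), 100 nM DILP5, or the acid solvent alone (vehicle), and each of these 3 groups has 3 libraries, called replicates A, B and C. All 3 groups, the vehicle group included, thus went through serum depletion, and no library of serum-fed cells was among those analysed. The labels do not say whether the replicates came from separate cultures, so the errors and p-values measure only the spread between these libraries.

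In the insulin pathway, a ligand on the insulin receptor InR activates phosphoinositide 3-kinase (PI3K) and then the kinase Akt, which relieves TORC1 of its brakes. *chrb* (charybde) and *scyl* (scylla) are the fly homologues of mammalian REDD1, a stress-induced protein that holds TORC1 down through the tuberous sclerosis complex (Tsc1 and the product of *gig*). In flies both genes were first known as growth inhibitors that hypoxia induces. PRAS40, the protein attributed to the *L* row, binds the TORC1 subunit Raptor and inhibits the complex, and Akt phosphorylates PRAS40 and takes this block away.

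The primers with which the study measured *chrb* and *scyl* by quantitative RT-PCR are shown because they are the sequences that define what that second assay of the genes amplified. They are written 5′ to 3′, each is 20 bases long, and the genes they are named for lie on 3L. The forward primers of the pair of genes share no run longer than 4 bases, and neither do the reverse primers.
chrb forward: tgacattgaggcaggacaag
chrb reverse: tgttcggagggattgagttc
scyl forward: gaagtgcaacaacgaagcaa
scyl reverse: tacaaaaatcgggccttacg

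The identity of the *L* row was checked first, because this symbol has moved. The row carries the identifier FBgn0001332 and the number CG10109. In the RefSeq table CG10109 is an older name of *PRAS40* on chromosome arm 2R, whereas *L* is now the name of a neighbouring gene formerly called *Oaz*. *Oaz* has its own row (FBgn0261613), with 1 to 5 counts in a library, against at least 858 for the *L* row. The values given here as *L* are thus those of the PRAS40 gene. *chrb* (FBgn0036165) and *scyl* (FBgn0041094) kept their names, and both lie on arm 3L, with 14 protein-coding genes between them. In the BDGP6 annotation, whose build is newer than the dm3 genome the reads were mapped to, no annotated gene overlaps any of the 3. The end of *Cpsf160*, on the other strand, lies 34 bp from that of *PRAS40*, and the sources used here do not say that the counting used strand. *Cpsf160* (82.8 ± 3.52 CPM with vehicle, SD, n = 3) changed by -0.04 (standard error 0.060) under DILP2 and by -0.14 (standard error 0.060) under DILP5 on the log2 scale, and neither was called.

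The libraries held from 28365854 to 38557706 counts on genes. Levels are given as CPM, a gene's counts scaled to a common library total, here with edgeR's TMM factors, and edgeR's filter on low counts left 8981 genes to test, among them all 3 members. Replicates of a group differed by more than counting error, with a chi-square per degree of freedom from 7.53 to 29.1, so no library was a copy of another. The 4 pairs that set replicate C of a DILP group against replicate A or B had the highest values, 16.5 to 29.1, against 7.53 to 11.7 in the other 5. Of the hemocyte markers, *srp* (294 to 395 CPM), *Col4a1*, *vkg* and *Pxn* were present in every library. The others were low: *Hml* had 2.36 to 4.57 CPM and *Sr-CI* 0.391 to 0.823 CPM, and *NimC1* and *He* stayed under 0.3 CPM. The muscle, fat body and germ line markers *Mhc*, *Lsp1alpha* and *vas* were under 0.9 CPM, but the neuronal marker *elav* had 64.7 to 72.9 CPM.

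*chrb* and *scyl* were each more than 2-fold higher with either peptide, and *L* was less than 0.45 of its vehicle level. The 3 inhibitors thus moved apart, the REDD1 homologues upward and the PRAS40 gene downward. In such bulk libraries, a change in the RNA per cell and a change in the cells that hold it cannot be told apart. For *chrb*, the vehicle libraries A, B and C had 72.0, 72.8 and 72.2 CPM. The DILP2 libraries had 189, 176 and 179 CPM, and the DILP5 libraries 189, 181 and 184 CPM. Every peptide library lay far above the vehicle libraries, which were nearly equal to each other. The log2 fold change was 1.33 (standard error 0.041) with DILP2 and 1.35 (standard error 0.041) with DILP5. These correspond to 2.51-fold and 2.55-fold, and among the 8981 genes they were the 5th and the 3rd largest rises.

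For *scyl*, which was the most abundant of the 3 genes, the vehicle libraries had 118, 107 and 115 CPM. The DILP2 libraries had 276, 248 and 243 CPM, and the DILP5 libraries 245, 246 and 237 CPM. DILP2 replicate A stood highest, and without it the log2 fold change with DILP2 was 1.12. With all libraries it was 1.18 (standard error 0.056) with DILP2 and 1.10 (standard error 0.055) with DILP5, or 2.26-fold and 2.14-fold. These were the 10th and the 12th largest rises.

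For *L*, the vehicle libraries had 65.4, 65.9 and 68.2 CPM. The DILP2 libraries had 28.2, 28.6 and 29.5 CPM, and the DILP5 libraries 30.1, 26.6 and 26.3 CPM. The vehicle libraries lay at more than 2 times every peptide library. The log2 fold change was -1.21 (standard error 0.056) with DILP2 and -1.27 (standard error 0.056) with DILP5, so that *L* kept 0.433 and 0.416 of its vehicle level. These were the 13th and the 15th largest falls of the 8981 genes.

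**Figure D1:**
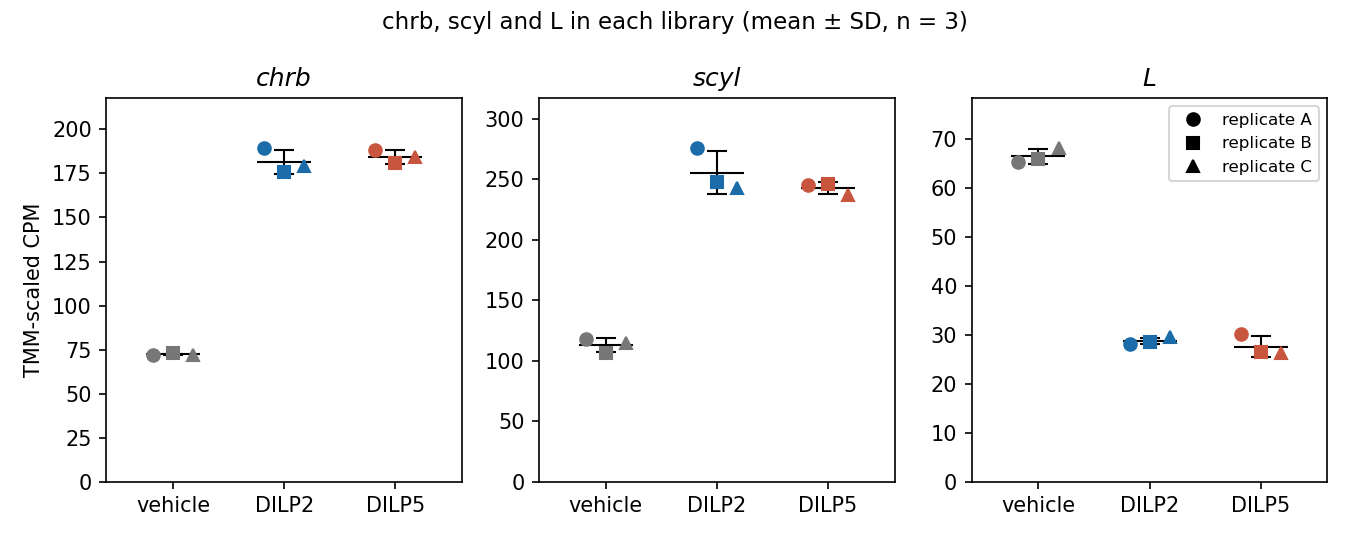
TMM-scaled CPM (y axis, from 0, with a scale of its own for each gene) of *chrb*, *scyl* and *L* in the 9 libraries, by group. Symbols are libraries, and the bars are the mean ± SD of 3. For *chrb* the vehicle libraries sit at 72.0 to 72.8 CPM and the peptide libraries at 176 to 189, for *scyl* at 107 to 118 and 237 to 276, and for *L* at 65.4 to 68.2 and 26.3 to 30.1.

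For all 3 genes, the ranges of the vehicle and the peptide libraries did not overlap with either peptide. Among all genes tested, the ranges did not overlap for 30.4% with DILP2 (14.3% higher, 16.1% lower) and for 33.6% with DILP5 (16.2% higher, 17.4% lower). Both comparisons use the same vehicle libraries, and since the members were picked for this contrast, nothing is read from their count. Depth was ample for each of them, with 858 to 9476 counts per library. At such counts, counting error alone gives a coefficient of variation of 1.05 to 3.27%. The coefficients of variation between replicates were from 0.587% for *chrb* with vehicle to 7.72% for *L* with DILP5. For *chrb* with vehicle counting error alone gives 2.04%, so those libraries were closer to each other than counting error gives on average. The same held for *L* with DILP2, at 2.43% against 3.27%. The log2 fold changes moved by less than 0.1 in each of the alternative settings.

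Levels were then set side by side per length, as CPM per kb of exon, with the BDGP6 exonic lengths of 5960 bp for *chrb*, 3124 bp for *scyl* and 2632 bp for *L*. With vehicle, *scyl* had 36.2 ± 1.87, *L* had 25.3 ± 0.562 and *chrb* had 12.1 ± 0.0713 CPM per kb (SD, n = 3). *L* was thus above *chrb* in every vehicle library, and this order was inverted in every peptide library. With DILP2, *scyl* had 81.9 ± 5.66, *chrb* 30.5 ± 1.17 and *L* 10.9 ± 0.266 CPM per kb. With DILP5 they had 77.7 ± 1.63, 31.0 ± 0.658 and 10.5 ± 0.811 CPM per kb. No neighbours in these orders overlapped in their library values.

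The ratio of *chrb* to *L*, per kb, was 0.468 to 0.488 in the vehicle libraries, 2.68 to 2.97 with DILP2 and 2.77 to 3.10 with DILP5. *L* made up 34.3 ± 0.947% of the summed level of the 3 genes with vehicle, 8.89 ± 0.634% with DILP2 and 8.81 ± 0.518% with DILP5 (SD, n = 3). The sum itself was 73.6 ± 1.92 CPM per kb with vehicle, 123 ± 6.56 with DILP2 and 119 ± 2.45 with DILP5, so the fall of *L* was smaller than the added rises of the REDD1 homologues. The ratio of *chrb* to *scyl* changed less. It was 0.320 to 0.358 with vehicle, 0.360 to 0.386 with DILP2 and 0.385 to 0.408 with DILP5.

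**Figure D2:**
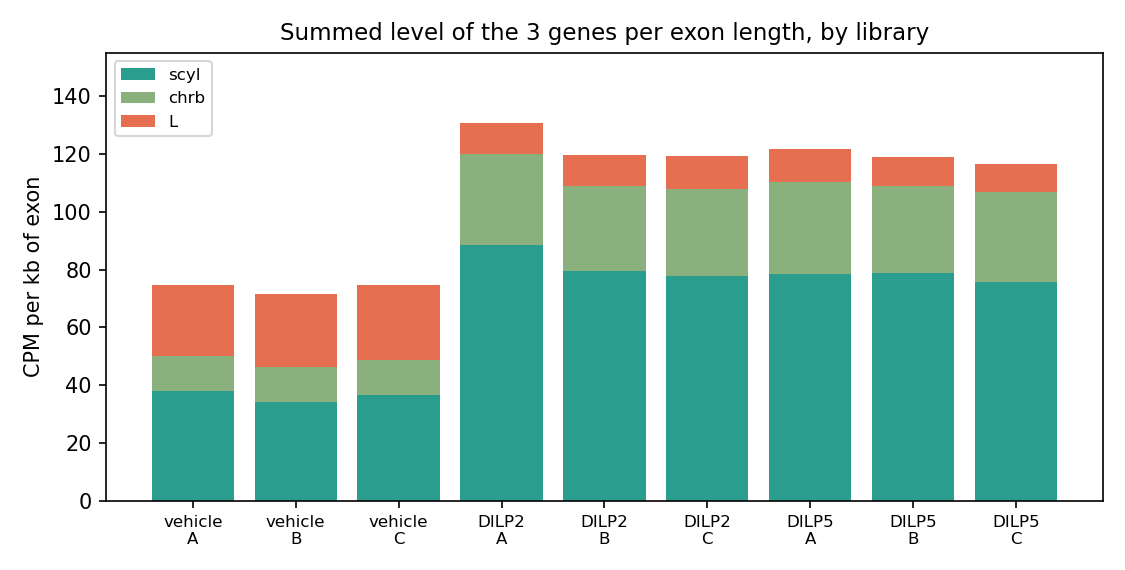
Summed level of *scyl*, *chrb* and *L* (y axis, CPM per kb of exon, from 0) in each of the 9 libraries, with each gene as a segment of the bar. The total is 71.4 to 74.7 in the vehicle libraries and 117 to 131 in the peptide libraries, and the *L* segment shrinks from a share of 33.3 to 35.1% to one of 8.19 to 9.42%.

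The next question was whether the peptides differed from each other in these genes. The picking of the members rests on their change against vehicle, not on this difference, so it was tested, in 3 pairs. None of the differences passed edgeR's quasi-likelihood test, adjusted by Benjamini-Hochberg over the 8981 genes. The level of *chrb* with DILP5 differed from that with DILP2 by a log2 fold change of 0.02 (95% interval -0.06 to 0.11, unadjusted p = 0.564, edgeR). For *scyl* it was -0.08 (95% interval -0.19 to 0.04, unadjusted p = 0.191, edgeR), and for *L* it was -0.06 (95% interval -0.18 to 0.07, unadjusted p = 0.333, edgeR). Each had an adjusted p of 0.9998. The library values of the peptides overlapped for each of the 3 genes, while 6.1% of all genes had ranges that did not overlap, 3.05% with DILP5 higher and 3.05% with it lower. By the same test, 0 of the 8981 genes (0%) were called between the peptides, and 208 had an unadjusted p below 0.05. DESeq2 also called 0. The intervals leave room for a difference of up to 1.08-fold in *chrb*, and for DILP5 levels as low as 0.874 of the DILP2 level in *scyl* and 0.880 in *L*.

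**Figure D3:**
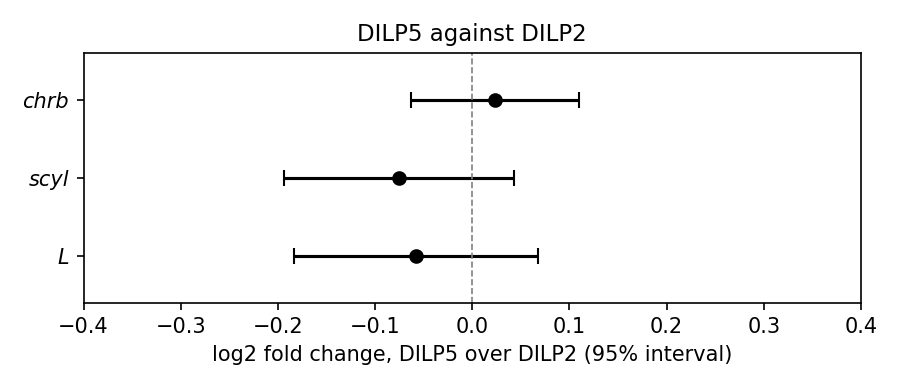
Log2 fold change of DILP5 over DILP2 (x axis) for *chrb*, *scyl* and *L*. Points are estimates of edgeR's quasi-likelihood fit of the 9 libraries and bars are 95% intervals. All 3 intervals include 0, and the widest reaches from -0.18 to 0.07, for *L*.

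The members were then set among 44 other genes of the TORC1 network, in 6 lists by role, which were drawn up from textbook knowledge with earlier results of these data known. Of these genes, 10 (22.7%) were called with DILP2, 1 higher and 9 lower, and 14 (31.8%) with DILP5, 2 higher and 12 lower. Over all genes tested, 10.9% were called with DILP2 (5.33% higher, 5.59% lower) and 13.1% with DILP5 (6.28% higher, 6.78% lower). With library size as the only scaling, 16 of the list genes were called lower with DILP2 and 1 higher, and the calls over all genes shifted to 307 higher and 778 lower with DILP2 (from 479 and 502) and to 366 higher and 852 lower with DILP5 (from 564 and 609). The median log2 fold change of the 44 genes was -0.07 with DILP2 and -0.08 with DILP5, against medians of 0 to 2 decimals over all genes. The largest absolute change in the lists was 0.91, that of *REPTOR* with DILP5, below the changes of all 3 members. Since the members were picked for their change against vehicle in these libraries, nothing is read from this order. No list gene had an unadjusted p under 0.05 between the peptides.

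Other negative regulators upstream of TORC1 formed a list of 11 genes. Among them, which include *Tsc1* and *gig* of the tuberous sclerosis complex, the subunits of the energy sensor AMPK and the GATOR1 complex, 0 were called with DILP2 and 1 with DILP5, near the share over all genes. With DILP2, *Sesn*, *alc* and *SNF4Agamma* had an unadjusted p below 0.05 by edgeR, at log2 fold changes of -0.14, -0.13 and -0.11. The list's log2 fold changes lay between -0.14 and 0.21 with DILP2 and between -0.12 and 0.17 with DILP5, where the median absolute log2 fold change over all genes was 0.10 and 0.11. *Tsc1* had 0.07 (standard error 0.042) and 0.11 (standard error 0.042), and *gig* had -0.07 (standard error 0.046) and -0.08 (standard error 0.045). The rise of *Tsc1* with DILP5 had an unadjusted p of 0.0235 by edgeR, and it was not called (adjusted p = 0.113, edgeR). The gene called with DILP5 was *Lkb1*, the kinase that activates AMPK, at 0.17 (adjusted p = 0.0415, edgeR). The GATOR2 genes *Wdr24* and *mio*, whose products relieve GATOR1's block on TORC1 when amino acids are present, fell. *Wdr24* (listed as CG7609) fell by 0.26 with DILP2 (adjusted p = 0.00371, edgeR) and by 0.32 with DILP5 (adjusted p = 8.82e-04, edgeR) on the log2 scale. For *mio* the log2 fold changes were -0.27 and -0.22. The other 8 genes of the core and its activators, among them *Tor*, *raptor* and *Rheb*, were not called, with log2 fold changes from -0.20 to 0.19.

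Of the 9 genes that lead from the receptor to Akt and TORC2, the test called 5 (55.6%) under DILP2 and 7 (77.8%) under DILP5. Among the 8981 genes it called 10.9% under DILP2 and 13.1% under DILP5. These 9 genes, too, were chosen after earlier results were known, so nothing is read from the higher share. *Pi3K21B*, the regulatory subunit of PI3K, rose from 187 to 192 CPM in the vehicle libraries to 280 to 285 with DILP2 and 277 to 291 with DILP5. Its log2 fold change was 0.57 with each peptide (adjusted p = 4.80e-06 and 3.07e-06, edgeR). *Pdk1* (listed as Pk61C), the kinase that phosphorylates Akt, fell from 210 to 227 CPM with vehicle to 147 to 157 with DILP2 and 152 to 163 with DILP5, at log2 fold changes of -0.51 and -0.46 (adjusted p = 4.07e-05 and 7.34e-05, edgeR). *InR*, the receptor, *chico*, the receptor substrate, and *Akt1* also fell with both peptides, and *Pi3K92E*, the catalytic subunit, and the adaptor gene *Lnk* were called lower with DILP5 alone. Whether the peptides differ there is answered by the direct comparison, in which no list gene stood out.

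Among 8 genes whose products act downstream of TORC1, directly or through a partner, 3 (37.5%) were called lower with DILP2 and 4 (50%) with DILP5, and none higher. Over all genes tested, 5.59% were called lower with DILP2 and 6.78% with DILP5. This list was likewise drawn up with earlier results known. *REPTOR* (listed as CG13624), a transcription factor that TORC1 keeps out of the nucleus, had 259 to 297 CPM with vehicle, 148 to 176 with DILP2 and 141 to 162 with DILP5. Its log2 fold changes were -0.80 and -0.91 (adjusted p = 5.99e-05 and 2.15e-05, edgeR). *Atg1*, the kinase that starts autophagy, fell by 0.29 with DILP2 and by 0.30 with DILP5 on the log2 scale (adjusted p = 0.00227 and 0.00139, edgeR). *Thor*, the gene of the translation inhibitor 4E-BP, fell too, with larger errors. Its log2 fold changes were -0.76 (standard error 0.195) with DILP2 and -0.72 (standard error 0.194) with DILP5 (adjusted p = 0.0299 and 0.0308, edgeR). *REPTOR-BP*, the partner of REPTOR, was called with DILP5 (log2 fold change -0.29, adjusted p = 0.0226, edgeR) and had -0.24 with DILP2 (adjusted p = 0.0577, edgeR). *S6k* had -0.06 (standard error 0.046) and -0.02 (standard error 0.045), and was not called.

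Since hypoxia induces *chrb* and *scyl* in flies, 4 genes of the hypoxia pathway were included. The hypoxia factor *sima*, its partner *tgo* and its regulator *Vhl* had log2 fold changes from -0.15 to 0.09 and were not called. The target *ImpL3*, lactate dehydrogenase, varied widely between libraries, from 53.5 to 133 CPM with vehicle, 102 to 169 with DILP2 and 96.6 to 170 with DILP5. On the log2 scale it differed from vehicle by 0.68 with DILP2 and by 0.66 with DILP5 (standard error 0.30 and adjusted p = 0.184 for each, edgeR). The groups overlapped and the gene was not called, although it was called with each peptide in the fit without vehicle replicate A. The 14-3-3 genes, whose proteins bind phosphorylated PRAS40 in mammals, had log2 fold changes from 0.07 to 0.10 and were not called.

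The list counts depended on single libraries. Without vehicle replicate C, 6 list genes were called with DILP2. With DILP5, 8 were called without vehicle replicate A, B or C, and 7 without DILP5 replicate B. In every fit that left out 1 library, 6 genes stayed called with DILP2 (*Wdr24*, *InR*, *Pi3K21B*, *Pdk1*, *Atg1* and *REPTOR*), and the same genes and *Akt1* with DILP5. The calls of *mio*, *chico*, *Thor*, *Lkb1*, *Lnk*, *Pi3K92E* and *REPTOR-BP*, and that of *Akt1* with DILP2, were lost in at least 1 such fit. With DILP5, *Lkb1* and *Lnk* kept their calls in 1 of 9 such fits, *chico* in 2, *Pi3K92E* in 3, *mio* in 4, *REPTOR-BP* in 5 and *Thor* in 6. With DILP2, *chico* kept its call in 2 of 9, *Thor* in 4, *Akt1* in 6 and *mio* in 7.

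**Figure D4:**
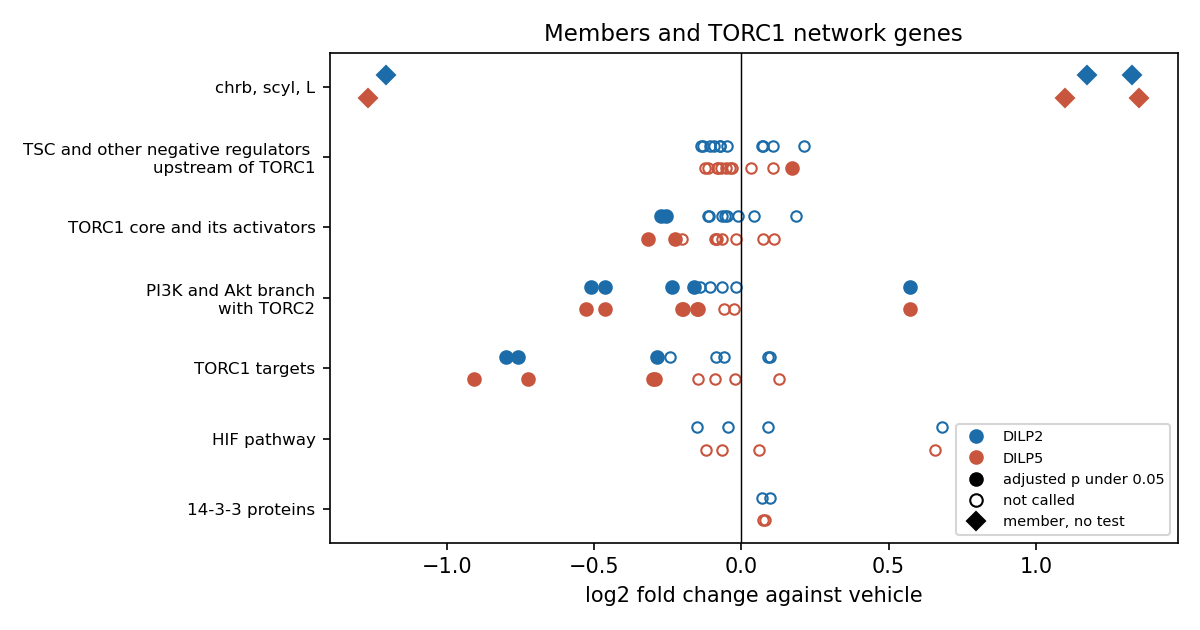
Log2 fold change against vehicle (x axis) of *chrb*, *scyl* and *L* (diamonds, no test) and of 44 TORC1 network genes (circles), by list (y axis), with DILP2 in blue and DILP5 in red. Filled circles passed edgeR's test (adjusted p below 0.05). The members lie between -1.27 and 1.35, and the circles between -0.91 and 0.68.

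The genes whose levels ran most like those of each member were found by the Pearson correlation of log2 CPM over the 9 libraries. All of these correlations were at least 0.989. The libraries share a split into 3 vehicle and 6 peptide libraries, so the correlations mainly reflect that split and are given as a description. Among the genes most like *chrb* were *SCaMC* (listed as CG32103), *apt*, *Nop60B* and *B4*. *SCaMC*, a mitochondrial carrier, had 160.2 ± 2.28 CPM with vehicle, 330.3 ± 7.86 with DILP2 and 328 ± 6.44 with DILP5 (SD, n = 3). *apt*, a transcription factor, had log2 fold changes of 1.09 and 1.17. *Nop60B*, a pseudouridine synthase of the nucleolus, had a smaller log2 fold change of 0.46 with each peptide.

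The 5 genes most like *scyl* were *SCaMC* again, *Hsp83*, *RasGAP1* (listed as Gap1), *alpha-Est10* and *PH4alphaEFB*. *SCaMC* was the only gene on both lists. *Hsp83*, the fly Hsp90 chaperone, had 3587 ± 148 CPM with vehicle, 5553 ± 95.9 with DILP2 and 5498 ± 244 with DILP5. The last 3 genes of this list had log2 fold changes of 0.26 to 0.40, far smaller than that of *scyl*. Most like *L* were *Phs* (listed as CG7372), *vri*, FBgn0010877, *bun* and *zfh2*. *vri*, a transcriptional repressor of the circadian clock, had 11.4 ± 0.564, 4.46 ± 0.190 and 4.43 ± 0.184 CPM, and its log2 fold changes of -1.35 and -1.36 were the nearest in size to those of *L*. *bun*, of the TSC-22 family, had 746 ± 36.1, 433 ± 24.0 and 422 ± 12.2 CPM.

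The expressed gene next to *scyl* had a far smaller log2 fold change than *scyl*, and *chrb* had no neighbour with more than 3 counts. On 3L, *Vha16-2* and *CG33500* flank *chrb* and had at most 3 counts in any library, and *Ir68a*, on one side of *scyl*, had at most 7. *Dyro*, on the other side, had 13.8 ± 1.52 CPM with vehicle and changed by 0.27 under DILP2 and 0.26 under DILP5 on the log2 scale, and was not called (adjusted p = 0.0638 for each, edgeR). These are the nearest protein-coding genes, taken after the nearest annotated features of any kind were seen to be mostly transposons and noncoding RNAs that have no row in the table.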

How the data were processed

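Per the labels and the study's methods, the authors sequenced 50 bp single-end reads on a HiSeq2500, mapped them to dm3 with Tophat and Bowtie, counted them per gene with easyRNASeq and deposited the raw counts of 9 libraries without normalization. Versions, annotation release and the use of strand are not given in the sources used here, so reads shared between genes cannot be told apart. The counts of each library were fitted with edgeR 4.0.16 in R 4.3.3 as deposited: default filter on low counts for 3 groups, TMM scaling, the quasi-likelihood test on all 9 libraries without a block, and Benjamini-Hochberg adjustment over 8981 genes calling genes at adjusted p below 0.05. Each standard error was taken as the size of the log2 fold change divided by the root of its F. For correlations, 2 prior counts were added before CPM were put on the log2 scale. The members and lists were chosen with earlier results of these data known. Of 45 list genes, 44 were found in the table by gene name or FlyBase ID, and the other was not searched for by its CG number.

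Named genes are the members, list genes that were called or whose list is described, the 5 genes most correlated with each member (1 of them is not reported here), and neighbours. Alternatives were DESeq2 1.42.0, DESeq2's factors in edgeR, scaling by library size alone, omission of the filter, a minimum of 10 counts per library, the 6 libraries of each comparison, the replicate letter as a block, and each library left out. Names were matched by FlyBase ID for 13389 of 13937 genes, and exonic lengths came from BDGP6, which is not the mapping build. The test was run on simulated counts, with the same spread set for every gene and no other difference between replicates. There it called 40 of 50 genes set to change 1.25-fold and 50 of 50 at 1.5-fold. It made 10 false calls among 8895 genes tested. The spread of the real libraries was not simulated. Figures were drawn with matplotlib 3.10.9.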

Additional observations from a re-analysis of the deposited data

How the results depend on the processing

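The 9 log2 fold changes of *chrb*, *scyl* and *L* kept their direction in all 16 alternatives, and the 3 differences between the peptides stayed uncalled. With library size as the only scaling, 2 moved by more than the spread between replicates: *chrb* with DILP5 to 1.32 and *L* with DILP2 to -1.25. Under that scaling the median log2 fold change of all genes was -0.04 with either peptide, against 0 to 2 decimals. It also called 17 of the network genes with DILP2. With the replicate letters as a block, the calls rose from 981 to 1781 genes under DILP2 and from 1173 to 2068 under DILP5, and of the network genes 17 with DILP2 and 19 with DILP5. The block's added calls include *ImpL3* with both peptides (adjusted p = 0.0160 and 0.0174, edgeR) and, with DILP2, *tgo* (0.0256) and the negative regulators *Sesn* (0.0358), *alc* (0.0293) and *SNF4Agamma* (0.0341). The letters do not pair the libraries by the labels. Over the 9 same-letter pairs, the correlations of deviations ran from -0.04 to 0.35. Of these pairs 6 were over 0.1, all of them A with A or C with C, while the B pairs lay from -0.04 to 0.10. Of the 18 other pairs 3 were over 0.1, each an A library with a B library. With each library left out in turn, all genes called ranged from 487 to 1007 with DILP2 and from 622 to 1270 with DILP5. The network genes called ranged from 6 to 11 with DILP2 and from 7 to 14 with DILP5. Such fits hold fewer libraries. The cause of the other shifts was not tested.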
